A study of Mus musculus with 6 samples.

Results

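Transcripts of 9 complement components and regulators were measured by RNA-seq in primary mouse cardiac fibroblasts in which the DNA demethylase gene Tet3 had been targeted. The genes were taken by symbol and are C1ra, C1s1, C4b, Masp1, C3, Cfb, Serping1, Cd55 and Cd59a, which made up 9 of the 22063 genes in the table. All cells came from Tet3 f/f mice, in which both Tet3 alleles are flanked by loxP sites, and all were treated with TGF-β, which turns fibroblasts into contractile myofibroblasts. The GFP group (n = 3 libraries) received an adenovirus encoding green fluorescent protein and the CRE group (n = 3) an adenovirus encoding Cre recombinase, the enzyme that removes the floxed part of the gene. Animal age was not given in the sources used here, and cells without TGF-β or without virus, and Cre in cells with no floxed allele, were not analysed here. The replicates are called biological in the study's text, where the experiments described with the RNA-seq are covered together, but the labels do not say whether the libraries of a group came from separate cultures or animals. The p-values measure the spread between these libraries, and if they were not separate that spread may be technical.

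Complement is a set of plasma and cell surface proteins that cut one another in cascades. The classical pathway starts when C1q binds a target and activates the proteases C1r and C1s, which cut C4 and C2, and the lectin pathway does the same through mannose-binding lectin, ficolins and the MASP proteases. Both lead to cleavage of C3, the central component, and factor B forms the C3 convertase of the alternative pathway. Plasma and membrane regulators, such as C1 inhibitor, CD55 and CD59, hold the cascade in check at different steps. The liver makes most plasma complement, and fibroblasts are among the other cells known to make components locally.

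Total counts lay between 17002126 and 20343590 per library, and 3 counts, taken as the floor of detection for counting error only, corresponded to 0.156 to 0.187 CPM (counts scaled to library size, with edgeR's TMM factors). The first principal component of the tested genes held 71.4% of the variance and separated the groups. GFP replicate 1 stood apart on the second, which held 10.3%, and it was the lowest GFP library for 8 of the 9 complement genes, so values with and without it are given where it mattered. The targeted gene, Tet3, was counted 1044, 965 and 1000 times in GFP and 642, 649 and 637 times in CRE cells. In CPM it was at 60.8% of the GFP level, a log2 fold change of -0.72 (SE 0.08, edgeR adjusted p = 5.36e-05), and this count covers the whole gene and not the deleted part alone. Fibroblast markers were by far the most abundant of the marker lists, with 8 of 9 lower in CRE cells (25.7% of all tested genes were lower) and a summed level of 29290 to 30455 CPM in GFP against 18106 to 19516 CPM in CRE libraries. The markers of neutrophils and cardiomyocytes summed to under 1.13 CPM in every library.

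All 9 complement genes had enough counts to be tested, and 8 of them differed between CRE and GFP cells at an adjusted p under 0.05. C1ra, C1s1, C3, Cd55 and Cd59a fell, C4b, Masp1 and Cfb rose, and Serping1 did not pass. Over all 12862 genes tested, 51.2% passed, 25.5% of them higher and 25.7% lower as shares of all tested, so a call by itself was common in this comparison. The libraries of the groups did not overlap in CPM for 8 of the 9 genes, against 59.6% of all tested genes. The median log2 fold change of the 9 was -0.40, beside 0.0051 for all tested genes. In these bulk samples, fewer cells of a type and less RNA per cell cannot be told apart.

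**Figure D1:**
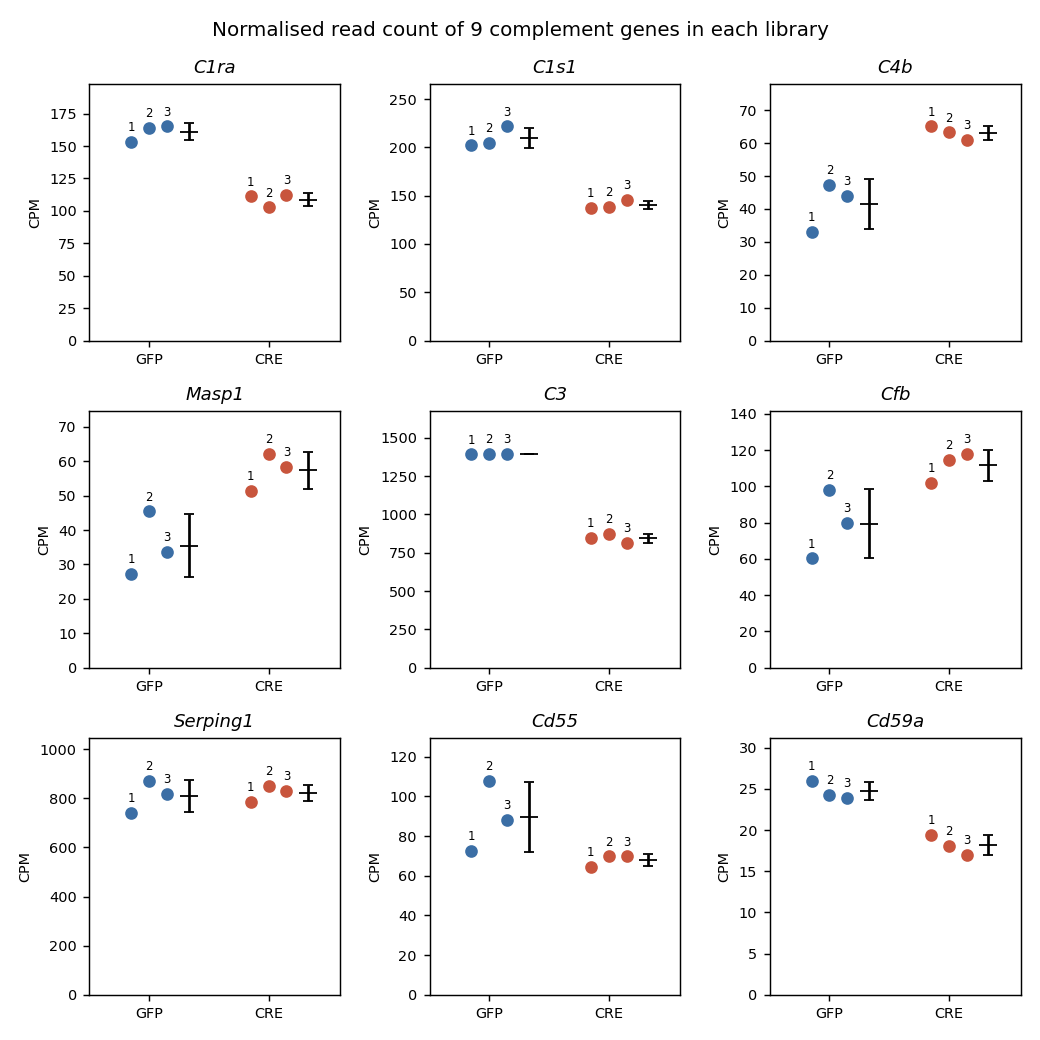
Normalised read count of each of the 9 complement genes, with TMM-scaled CPM on the vertical axis and the GFP (blue) and CRE (red) groups on the horizontal axis. Points are single libraries with their replicate numbers, and the black bar is the mean with its SD. C3, C1ra and C1s1 were lower in every CRE library, C4b, Masp1 and Cfb were higher in every CRE library, and Serping1 overlapped.

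The proteases of the C1 complex fell together. C1ra, which encodes the C1r protease, was read at 153.3, 164.2 and 165.1 CPM in GFP and at 111.2, 102.6 and 112.1 CPM in CRE libraries. Every CRE library lay below every GFP library. Its mean fell from 160.9 ± 6.56 to 108.6 ± 5.22 CPM (SD, n = 3 each), which is 67.5% of GFP, with a log2 fold change of -0.57 (SE 0.05, edgeR adjusted p = 1.28e-05). C1s1, which encodes the C1s protease that C1r activates, was read at 201.9, 205.0 and 221.6 CPM in GFP and at 137.3, 138.0 and 145.6 CPM in CRE libraries. Again the groups did not overlap. The C1s1 mean fell from 209.5 ± 10.6 to 140.3 ± 4.57 CPM, 67.0% of GFP, with a log2 fold change of -0.58 (SE 0.05, edgeR adjusted p = 9.52e-06). The 2 genes are neighbours on chromosome 6 of GRCm38, C1ra at chr6:124512405-124523443 on the plus strand and C1s1 at chr6:124530345-124542359 on the minus strand, with 6.901 kb between them. C1rl, which encodes a C1r-like protease and lies 1.761 kb from C1ra, did not pass (21.8 against 18.4 CPM, edgeR adjusted p = 0.0802), and it was chosen after its values were seen. The near-identical copies C1rb and C1s2 gave few reads, 0 to 14 and 6 to 15 counts per library, and summing each with its partner left both calls in place. The antisense gene Gm16567 shares 18.4% of the exon bases of C1s1, and it has no row of its own in the table.

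C4b and Masp1 moved the other way. C4b, which encodes complement C4, a substrate of C1s, was read at 33, 47.4 and 44.0 CPM in GFP and at 65.1, 63.2 and 60.9 CPM in CRE libraries. All CRE libraries exceeded all GFP libraries, and GFP replicate 1 was the lowest. The mean rose from 41.4 ± 7.53 to 63.1 ± 2.07 CPM, 152.3% of GFP, with a log2 fold change of 0.60 (SE 0.11, edgeR adjusted p = 0.000910), and it was 0.46 without GFP replicate 1. C4b lies at chr17:34728380-34743882 on the minus strand. Its near-identical copy C4a has no row in the table, so the effect of reads shared between the pair was not measured.

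Masp1, which encodes the lectin pathway protease MASP-1 and, by alternative splicing, MASP-3, was read at 27.3, 45.4 and 33.6 CPM in GFP and at 51.4, 62.2 and 58.3 CPM in CRE libraries. The groups did not overlap, although the GFP libraries were spread widely, with a coefficient of variation of 25.9%. Its mean rose from 35.4 ± 9.18 to 57.3 ± 5.49 CPM, 161.8% of GFP, with a log2 fold change of 0.69 (SE 0.15, edgeR adjusted p = 0.00293). Without GFP replicate 1 the change was 0.54, and without GFP replicate 2 it was 0.90. Masp1 spans chr16:23449417-23520815 on the minus strand and has annotated coding transcripts of 2035 to 5345 bases. Counts per gene do not say which of these changed.

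C3 had the most reads of the 9 genes in every library but CRE replicate 3, where Serping1 had more, and Cfb rose while C3 fell. C3, whose cleavage is the step at which all pathways meet, was read at 1391.7, 1397.4 and 1394.9 CPM in GFP and at 844.9, 873.7 and 812.9 CPM in CRE libraries. The 3 GFP libraries were nearly equal, with a coefficient of variation of 0.205%, and all CRE libraries lay far below them. Its mean fell from 1395 ± 2.85 to 843.8 ± 30.4 CPM, 60.5% of GFP, with a log2 fold change of -0.72 (SE 0.04, edgeR adjusted p = 6.70e-07). The gene lies at chr17:57203970-57228136 on the minus strand. Leaving out any 1 library kept the log2 fold change between -0.75 and -0.70.

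Cfb encodes factor B, the protease of the alternative pathway convertase. It was read at 60.2, 98.0 and 80.1 CPM in GFP and at 101.9, 114.7 and 118.1 CPM in CRE libraries. The lowest CRE library exceeded the highest GFP library by a small margin. The mean rose from 79.4 ± 18.9 to 111.6 ± 8.53 CPM, 140.4% of GFP, with a log2 fold change of 0.49 (SE 0.14, edgeR adjusted p = 0.0128). Single GFP libraries weighed on this value, since the log2 fold change was 0.32 without GFP replicate 1 (edgeR adjusted p = 0.00704) and 0.66 without GFP replicate 2, and over the 6 fits that each left out 1 library the adjusted p ran from 0.000891 to 0.0466. Cfb lies at chr17:34856374-34862518 on the minus strand, 112.491 kb from C4b and 85 bases from C2, which encodes the protease of the classical pathway convertase. C2 itself was read at 5.66, 10.5 and 9.30 CPM in GFP and at 11.4, 11.7 and 11.7 CPM in CRE libraries, groups that did not overlap, but its log2 fold change of 0.43 (SE 0.18) did not pass (edgeR adjusted p = 0.0633). C2 was named after its values were seen. A read-through gene on the same strand, Gm20547, shares 79.5% of the exon bases of Cfb and was listed at 0 counts in all libraries. These 0 counts do not show that Gm20547 was silent, and the effect of shared reads on the Cfb count was not measured.

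Promoter sequence is shown for C3 and C1s1, the 2 genes with a C/EBP match before an annotated start among the 5 with a window. C/EBPβ and C/EBPδ are known activators of acute-phase genes. RefSeq promoter windows (GRCm38.p6, 250 bases before to 50 bases after a start) were matched by symbol for C3, C1s1, C1ra, Cd55 and Cd59a, which is 5 of the 9 genes, and C4b, Cfb, Serping1 and Masp1 had no entry. The 250 bases before the start are chr17:57228137-57228386 for C3 and chr6:124542360-124542609 for C1s1, both on the minus strand, printed 5′ to 3′ with the C/EBP match in capitals.
C3: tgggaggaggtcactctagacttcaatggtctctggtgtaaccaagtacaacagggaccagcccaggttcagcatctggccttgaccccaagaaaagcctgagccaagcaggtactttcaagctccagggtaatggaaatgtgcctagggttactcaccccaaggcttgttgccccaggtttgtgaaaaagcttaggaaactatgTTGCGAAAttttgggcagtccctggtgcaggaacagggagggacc
C1s1: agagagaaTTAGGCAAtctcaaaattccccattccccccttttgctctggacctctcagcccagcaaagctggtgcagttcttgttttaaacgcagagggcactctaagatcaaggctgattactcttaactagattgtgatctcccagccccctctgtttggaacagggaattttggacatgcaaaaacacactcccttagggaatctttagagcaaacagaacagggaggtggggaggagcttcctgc
In C3 the match TTGCGAAA lay 45 to 38 bases before the start. In C1s1 the match, TTAGGCAA as read on the strand of the gene, lay 242 to 235 bases before the more distal of 2 annotated starts. C1ra held a C/EBP match and a match to the STAT site named GAS, both within the 50 bases after its RefSeq start, and C3 held TATAAA 14 to 19 bases after its start. Cd55 and Cd59a held none of the motifs searched. All motifs were searched on both strands. C/EBP (TTGCNNAA) was in 10.8% of all 32851 windows, GAS (TTCNNNGAA) in 8.30%, the kappaB motif in 8.46% and the cyclic AMP response element (TGACGTCA) in 1.79%. AP-1 (TGANTCA) was in 7.81%, a SMAD motif (GTCTAGAC or CAGACA) in 21.2% and the box TATAAA in 13.6%. A match is a description of the letters only. All 5 genes with a window were called lower, so matches could not be compared with genes that rose. A link between a match and a change was not tested. The 300-base windows held 3 CpG for C3, 1 for C1s1, 5 for C1ra, 12 for Cd55 and 1 for Cd59a, beside a median of 7 over all windows (quartiles 3 and 20).

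Of the 3 regulators, Serping1 did not pass and Cd55 and Cd59a fell. Serping1 encodes C1 inhibitor, which removes active C1r, C1s and MASP proteases. It was read at 739.0, 870.9 and 818.0 CPM in GFP and at 785.3, 850.1 and 831.3 CPM in CRE libraries. In CPM the groups overlapped fully, whereas in FPKM every CRE library (467.2, 510.7 and 497.4) was above every GFP library (394.3, 465.5 and 437.7). Its mean was 809.3 ± 66.4 CPM in GFP and 822.2 ± 33.3 CPM in CRE cells, 101.6% of GFP, with a log2 fold change of 0.02 (SE 0.06, edgeR adjusted p = 0.778) and a 95% interval of the fold from 92.5% to 111.5%. The call depended on scaling. The log2 fold change was 0.19 when libraries were scaled by total count alone (edgeR adjusted p = 0.0248). That setting moved the median of all tested genes by 0.16. In both fits on log2 FPKM the change of Serping1 was also 0.19 (limma adjusted p = 0.0498 with a pseudocount of 1 and 0.0481 with 0.1). FPKM holds no TMM factor, and in those fits the median over all tested genes was 0.135 and 0.165. They are therefore not a separate readout from scaling by total count. Across the 11 other ways of processing, the adjusted p ran from 0.0248 to 0.844, and with 1 library left out the log2 fold change ran from -0.04 to 0.08. The gene lies at chr2:84765387-84775444 on the minus strand.

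Cd55, which encodes decay-accelerating factor, a membrane protein that takes C3 convertases apart, was read at 72.7, 107.9 and 88.3 CPM in GFP and at 64.5, 69.8 and 69.7 CPM in CRE libraries. The CRE libraries all lay below GFP replicate 1, the lowest GFP library, by a small margin. The mean fell from 89.6 ± 17.6 to 68.0 ± 3.02 CPM, 75.9% of GFP, with a log2 fold change of -0.40 (SE 0.11, edgeR adjusted p = 0.0141). This call was lost without CRE replicate 1 (-0.36, edgeR adjusted p = 0.0586), the change shrank to -0.25 without GFP replicate 2 and grew to -0.53 without GFP replicate 1, and the adjusted p over these 6 fits ran from 0.000142 to 0.0586. Scaling by total count alone gave -0.24 (edgeR adjusted p = 0.101) and the fits on log2 FPKM -0.17 and -0.18, within a range of 0.000576 to 0.280 over the 11 other ways of processing. Cd55 lies at chr1:130439027-130462744 on the minus strand, 16.017 kb from its copy Cd55b, which was listed at 0 counts in all 6 libraries.

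Cd59a encodes CD59, the membrane protein that blocks assembly of the membrane attack complex. It was read at 26.0, 24.3 and 23.9 CPM in GFP and at 19.4, 18.1 and 17 CPM in CRE libraries, without overlap. This was the only one of the 9 genes for which GFP replicate 1 was not the lowest GFP library. The mean fell from 24.7 ± 1.11 to 18.2 ± 1.23 CPM, 73.5% of GFP, with a log2 fold change of -0.44 (SE 0.08, edgeR adjusted p = 0.000771). Its copy Cd59b, 4.613 kb away on chromosome 2, had 3 to 8 counts per library. Cd59a itself lies at chr2:104095801-104115354 on the plus strand.

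**Figure D2:**
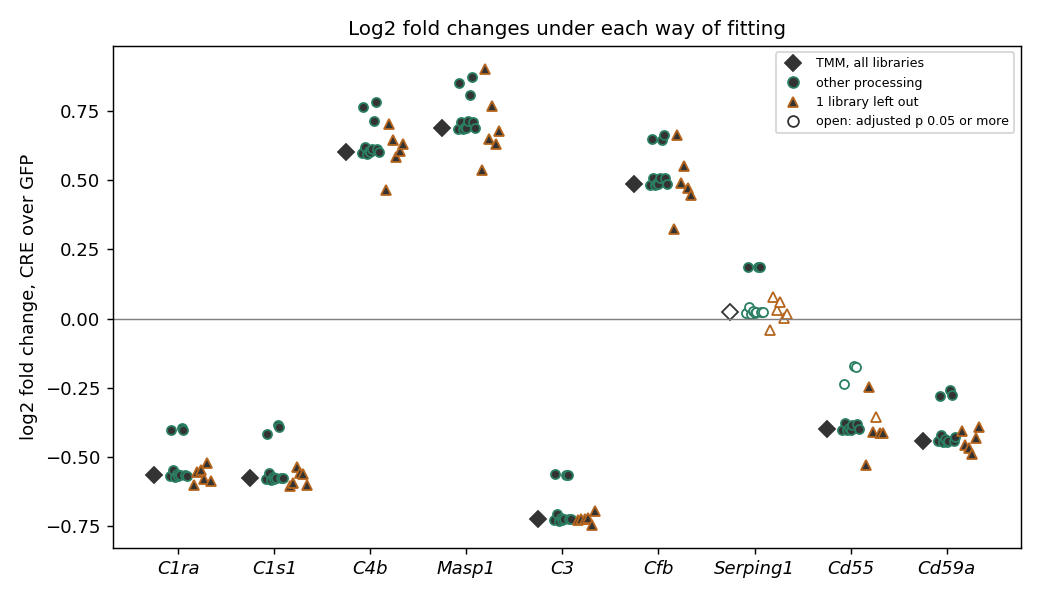
Log2 fold change (CRE over GFP) of each of the 9 genes with all libraries and TMM scaling (diamonds), under the 11 other ways of processing (circles) and with 1 library left out (triangles), where open symbols had an adjusted p of 0.05 or more. C1ra, C1s1, C3 and Cd59a stayed below 0 and C4b, Masp1 and Cfb above 0 with filled symbols throughout, whereas Serping1 and Cd55 had symbols of both kinds.

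Levels of different genes were compared in FPKM, which divides by transcript length. FPKM holds no TMM factor, so a change between the groups in FPKM can differ from the change in CPM. In GFP cells the order was Serping1 (432.5 FPKM), C3 (257.2), C1s1 (75.3), C1ra (51.0), Cd55 (36.2), Cfb (28.3), Cd59a (13.8), Masp1 (8.75) and C4b (7.28), and the ranges of Cd55 and Cfb and of Masp1 and C4b overlapped. In CRE cells it was Serping1 (491.8 FPKM), C3 (173.7), C1s1 (57.2), Cfb (44.3), C1ra (38.5), Cd55 (31.6), Masp1 (15.8), C4b (12.5) and Cd59a (11.4), with no overlap between neighbours. Cfb thus stood below C1ra and Cd55 in GFP cells and above both in CRE cells, and Cd59a stood above Masp1 and C4b in GFP cells and last in CRE cells. Of the summed FPKM of the 9 genes, C3 took 28.3 ± 1.71% in GFP and 19.8 ± 0.75% in CRE libraries, and Serping1 took 47.5 ± 0.88% and 56.1 ± 0.61%. The sum itself overlapped between the groups, at 845.6, 962.2 and 923.3 FPKM in GFP and 843.8, 905.9 and 880.7 FPKM in CRE libraries. In counts it did not overlap, since the 9 genes together took 0.255, 0.280 and 0.271% of the counts in GFP and 0.229, 0.243 and 0.235% in CRE libraries, and their TMM-scaled sum was 2705 to 2960 CPM in GFP against 2181 to 2292 CPM in CRE libraries.

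Ratios within a library do not depend on how libraries are scaled to one another. The ratio of Cfb to C3 in FPKM was 0.0869, 0.132 and 0.111 in GFP and 0.233, 0.251 and 0.282 in CRE libraries. The ratio of C4b to C3 was 0.0226, 0.0321 and 0.0301 in GFP and 0.0735, 0.0691 and 0.0728 in CRE libraries. Both ratios were higher in every CRE library than in any GFP library. Serping1 stood at 5.71, 6.23 and 5.33 times the FPKM of its target C1s1 in GFP and at 8.46, 8.65 and 8.66 times in CRE libraries, again without overlap. By contrast, the ratio of C1s1 to C1ra overlapped between the groups, at 1.42, 1.43 and 1.57 in GFP and 1.41, 1.61 and 1.44 in CRE libraries. The ratio of Cd55 to Cd59a overlapped as well, with group means of 2.64 ± 0.60 and 2.80 ± 0.30. These ratios are descriptions and were not tested.

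**Figure D3:**
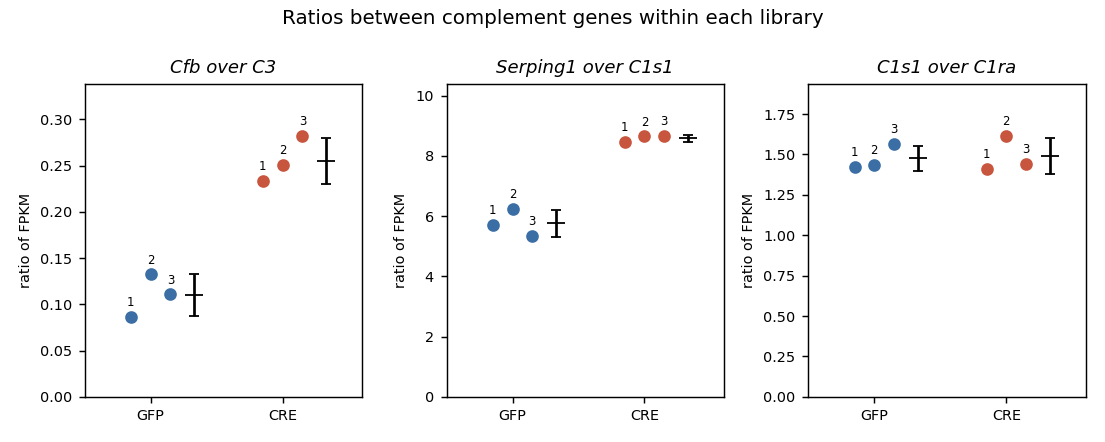
Ratio of FPKM between pairs of complement genes within each library, with the ratio on the vertical axis and the GFP (blue) and CRE (red) groups on the horizontal axis. Points are libraries with replicate numbers and bars the mean with SD. Cfb over C3 and Serping1 over C1s1 were higher in all CRE libraries, while C1s1 over C1ra overlapped.

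The other complement genes were read from a wider list of 50, of which 49 were in the table and 23 had enough counts to be tested. In CRE cells 2 were higher, 9 were lower and 12 did not pass, beside 51.2% called, 25.5% higher and 25.7% lower over all tested genes, with a median log2 fold change of -0.31 beside 0.0051 for all tested genes. Of the 8 tested genes listed as fluid-phase regulators, a group that also holds the membrane protein Csmd1, 5 were lower and none higher, beside 25.7% lower over all tested genes. Cfi, encoding factor I, the protease that cuts C3b, fell from 18.7 ± 2.74 to 8.73 ± 1.0 CPM (log2 fold change -1.09, SE 0.13, edgeR adjusted p = 6.51e-05). Clu, encoding clusterin, which binds the terminal complex, fell from 279.7 ± 16.1 to 206.0 ± 14.8 CPM (log2 fold change -0.44, SE 0.06, edgeR adjusted p = 0.000206).

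Among the remaining genes of the wider list, Colec12, a scavenger receptor of the collectin family, fell from 198.8 ± 13.4 to 142.7 ± 6.94 CPM (log2 fold change -0.48, edgeR adjusted p = 9.12e-05). Cr1l, which encodes the rodent membrane regulator Crry, fell from 89.9 ± 0.16 to 72.5 ± 3.33 CPM (log2 fold change -0.31, edgeR adjusted p = 0.000379), a call that was lost in both fits on log2 FPKM. C1qbp, which encodes a mitochondrial protein that also binds C1q, fell from 75.3 ± 5.10 to 46.1 ± 2.70 CPM (log2 fold change -0.71, edgeR adjusted p = 1.27e-05). The genes that were higher were Colec11 and Cd46, at means of 0.60 and 1.54 CPM in GFP and 1.34 and 2.43 CPM in CRE cells, and they were named after their values were seen. Neither call held without GFP replicate 3 or without CRE replicate 2, and 1 gene of the wider list was higher without GFP replicate 2 or without CRE replicate 1. C1qa, C1qb and C1qc, the chains of C1q, had 0 to 5 counts per library, and the 3 terminal pathway genes that could be tested did not pass. Cfd, encoding the factor D protease that cuts factor B, was at 0 counts in all libraries.

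**Figure D4:**
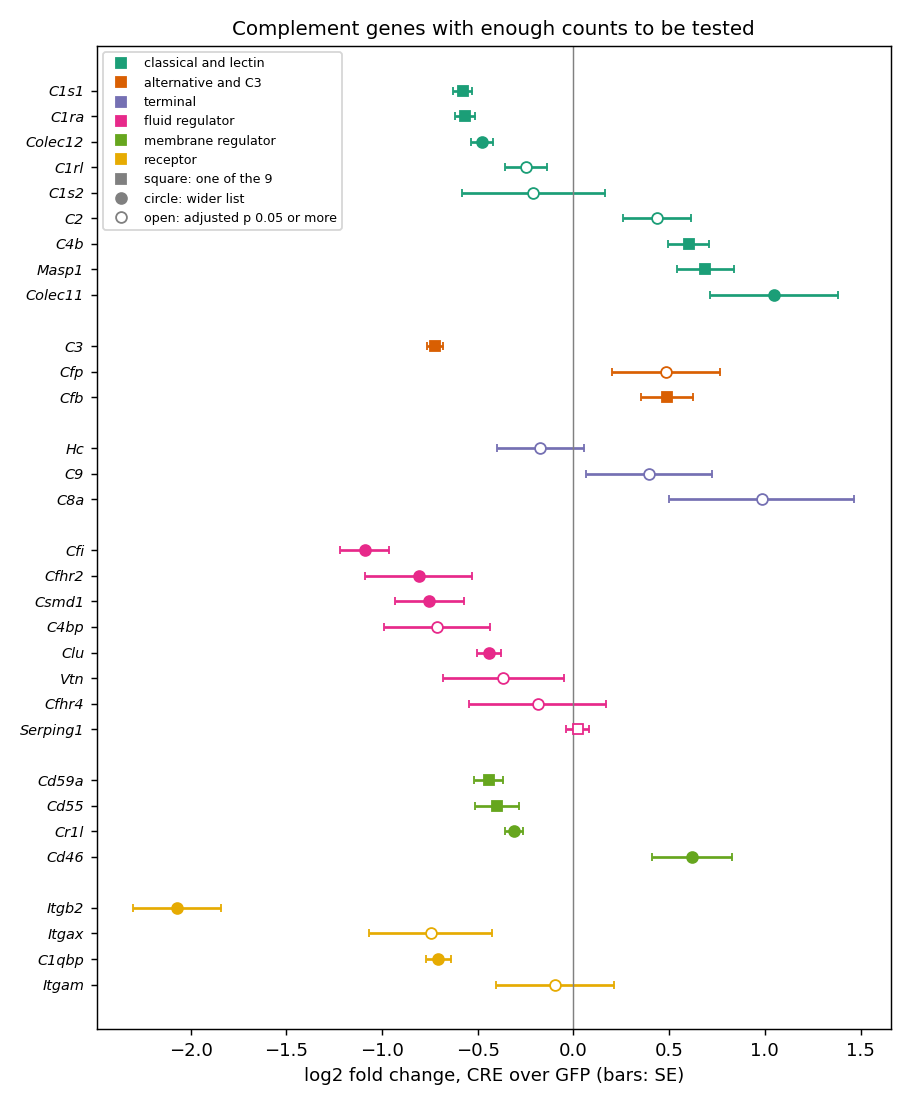
Log2 fold change (CRE over GFP, bars SE) of complement genes with enough counts to be tested, grouped by role, with squares for the 9 genes, circles for the wider list and open symbols for an adjusted p of 0.05 or more. Cfi lay near -1, C3, C1s1 and C1ra between -0.8 and -0.5, and C4b, Cfb and Masp1 above 0.4.

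Transcripts of 17 known inducers of complement genes and their receptors were all tested, with 5 higher, 7 lower and 5 that did not pass, beside 25.5% higher and 25.7% lower over all tested genes, and a median log2 fold change of 0.03. Cebpd and Cebpb, encoding C/EBP factors of the acute-phase response, fell from 108.6 ± 5.75 to 50.7 ± 3.15 CPM (log2 fold change -1.10, SE 0.06, edgeR adjusted p = 5.46e-07) and from 57.0 ± 6.12 to 34.1 ± 3.60 CPM (-0.74, SE 0.09, edgeR adjusted p = 9.71e-05). Il1r1, the interleukin-1 receptor, fell from 147.9 ± 31.2 to 84.4 ± 9.39 CPM (-0.81, SE 0.13, edgeR adjusted p = 0.000639). Nfkb2, a subunit of the noncanonical NF-κB pathway, rose from 51.6 ± 2.64 to 84.1 ± 1.93 CPM (0.70, SE 0.05, edgeR adjusted p = 3.19e-06). Irf1, a transcription factor of the interferon response, did not pass, but GFP replicate 1 was its lowest GFP library, at 28.4 CPM against 50.9 and 51.5 CPM. This value stands beside the low GFP replicate 1 of C4b, Cfb, Masp1 and Cd55, its part in those results was not tested, and the gene was named after its values were seen.

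Markers of other cell types also moved with the groups, and their counts stand beside 25.7% lower and 25.5% higher over all tested genes. Macrophage markers summed to 58.6 to 66.5 CPM in GFP and 34.5 to 37.9 CPM in CRE libraries, with 3 of 5 tested lower. Most of this sum came from Cd14 (means of 28.1 CPM in GFP and 13.4 CPM in CRE cells) and Lyz2 (23.5 and 14.6 CPM). Csf1r and Cd68 did not pass, and Ptprc, which marks all leukocytes, was at a mean of 0.44 and 0.27 CPM. Endothelial markers summed to 393.2 to 439.0 CPM in GFP and 191.0 to 218.3 CPM in CRE libraries, with 7 of 8 lower. Smooth muscle and pericyte markers summed to 77.0 to 84.0 CPM in GFP and 39.5 to 43.4 CPM in CRE libraries, with 5 of 7 lower, and mesothelial markers summed to 8.83 to 10.5 CPM and 10.2 to 14.7 CPM, with 4 higher and 1 lower of 6 tested. Of the adipocyte markers Adipoq and Lep were at 0 counts, and the list summed to 11.3 to 13.2 CPM in GFP and 1.07 to 2.06 CPM in CRE libraries through Fabp4. The part of these cell types in the changes of the complement genes was not tested.

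Transcript length gave a second readout. The count divided by FPKM and by the library total is the length over which a gene's reads were normalised. The groups did not overlap for 2 of the 9 complement genes, against 14.9% of the 10616 tested genes with an FPKM of at least 1 in every library. For Cd55 it was 2.37, 2.35 and 2.30 kb in GFP and 2.28, 2.27 and 2.28 kb in CRE libraries, a ratio of 0.972 (exact two-sided permutation test, p = 0.1, the smallest that 3 against 3 libraries allow). For Cd59a the ratio was 0.997 (exact permutation test, p = 0.1), and this separation was lost when each library was scaled to its own median. Cfb gave 2.64 kb in GFP and 2.66 kb in CRE libraries, beside a longest annotated coding transcript of 2751 bases. C3 gave 5.12 and 5.14 kb, beside 5136 bases.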

How the data were processed

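RNA from 6 libraries of cardiac fibroblasts was sequenced as paired-end reads. After trimming with Trimmomatic, the authors aligned reads to GRCm38 by HISAT2 and made the deposited counts per gene with HTSeq-count and the deposited FPKM with Cufflinks. Tool versions and the strand setting of the counting were not given in the sources used here, and the labels and the study's methods name different library kits. The authors also deposited the mean FPKM of each group, a log2 ratio and p-values and FDR of their own comparison, and none of these was used. Per the labels, groups were GFP and CRE.

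Counts were filtered with filterByExpr (minimum count 10), scaled by TMM and tested with edgeR 4.0.16 (quasi-likelihood, two-sided, Benjamini-Hochberg over all tested genes, R 4.3.3). A gene was called at an adjusted p under 0.05. SE was taken as the log2 change over the root of its F statistic. The script was tested on simulated data. Alternatives used DESeq2 1.42.0, limma 3.58.1, other scalings and filters, log2(FPKM + 1) and log2(FPKM + 0.1), each library left out, and near-identical gene pairs summed, except C4b with C4a. Levels between genes are in FPKM. Positions are from GENCODE M21 and promoters from RefSeq. No protein sequences were used here. The members and lists were chosen with earlier results of these data known. Of the wider list, values were named for genes of at least 5 CPM with an adjusted p under 0.05 and for copies of the members, and of the inducers for the 4 called genes with the largest change. Exceptions are stated. Some genes of these lists are counted but not reported by name here.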

Additional observations from a re-analysis of the deposited data

How the results depend on the processing

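C1ra, C1s1, C3, C4b, Masp1, Cfb and Cd59a kept their direction and their side of the adjusted p of 0.05 in the 11 other ways of processing and in the 6 fits without 1 library. Their sizes moved. Over the 11 other ways the log2 fold change ran from -0.73 to -0.56 for C3 and -0.58 to -0.39 for C1s1. It ran from -0.57 to -0.40 for C1ra and -0.45 to -0.26 for Cd59a. The ranges were 0.60 to 0.78 for C4b, 0.68 to 0.87 for Masp1 and 0.48 to 0.66 for Cfb. Clu ran from -0.45 to -0.28 and Colec12 from -0.48 to -0.30. Scaling by total count alone gave 4 higher and 4 lower of the 9 genes in place of 3 and 5, and 5529 higher and 2083 lower of all genes in place of 3277 and 3306. Both fits on log2 FPKM also gave 4 higher and 4 lower of the 9 genes, and over all genes 4976 higher and 1916 lower with a pseudocount of 1 and 4989 and 1909 with 0.1. For Serping1, the count divided by FPKM and by the library total gave 1.768 kb in both groups, beside an annotated transcript of 1768 bases. The deposited FPKM were thus scaled by total count, without TMM factors. The median log2 fold change of all tested genes was 0.165 with total count alone. It was 0.135 on log2(FPKM + 1) and 0.165 on log2(FPKM + 0.1), beside 0.0051 in the main fit. At the threshold of the study's methods (unadjusted p under 0.05 with a fold above 1.5 or below 0.66), 2 of the 9 genes were higher and 1 was lower, since that threshold also asks for a fold, beside 7.35% higher and 10.1% lower over all tested genes. Leaving out 1 library each gave 3 higher and 4 to 5 lower, with 4 without CRE replicate 1. Of the wider list, 2 were higher, but 1 with at least 10 counts in every library, where fewer genes were tested, 4 on log2(FPKM + 1), 4 on log2(FPKM + 0.1) and 3 with total count alone or limma-voom. In place of 9, 6 were lower in both fits on log2 FPKM and 8 to 10 in the other ways of processing. Leaving out 1 library each gave 0 to 2 higher and 8 to 11 lower, with 0 higher without GFP replicate 3 and without CRE replicate 2. Same-numbered libraries were not paired, since their deviations from the group means correlated at 0.05, 0.18 and -0.02, and not every library correlated best with its own number. With the replicate block, 3 of the 9 genes were higher and 5 lower, and 2 and 9 of the wider list. Genes near the floor of 3 counts, such as C1qa, are limited by depth.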
